A study of Mus musculus with 6 samples.

Results

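Tight junctions seal the space between neighbouring epithelial cells. Here 9 of their genes were described in 4T1 cells, 5 claudins (Cldn1, Cldn3, Cldn4, Cldn6 and Cldn7) and 4 partners (Ocln, Marveld2, F11r and Tjp1). They were taken by symbol from a table of 56448 genes, and each symbol matched 1 row. 4T1 is a transplantable mouse mammary carcinoma line, and the growth protocol describes its culture in a medium with serum. The extraction protocol speaks of tissue samples, so the labels do not settle that every library came from cultured cells alone. In the series, lentivirus was used to knock down the microRNA miR-9 stably in this line. There are 3 libraries with the genotype label LV2 and 3 with the label in9, all of them 4T1. The labels spell out neither name and do not say which is the control, so each difference is in9 minus LV2. Nothing says whether a line was 1 clone or whether replicates were separate cultures, and p-values therefore measure only the spread between these libraries, which may be technical. Mature miR-9 is not read by messenger RNA sequencing, so the knockdown itself was not checked.

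Claudins are membrane proteins that cross the membrane in several passes. Their outer loops pair with those of the facing cell and set which ions and molecules pass. Occludin, from Ocln, and tricellulin, from Marveld2, belong to the MARVEL family, and tricellulin gathers where the corners of cells meet. F11r encodes JAM-A, an immunoglobulin-like adhesion protein, and Tjp1 encodes ZO-1, the scaffold that ties claudins and occludin to actin. Breast tumours with little claudin transcript form a class of their own, the claudin-low type, and loss of claudins is one mark of epithelial-mesenchymal transition.

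The main observation is that in9 and LV2 libraries had close levels of the abundant members. Values were TPM, length-scaled transcript shares of a library. None of the 8 members with a mean TPM of at least 1 passed the limma test at a Benjamini-Hochberg adjusted p under 0.05, where 0.821% of the 13406 genes tested were called higher and 0.194% lower. In TPM as deposited, Cldn6 was the 1 member with an unadjusted p under 0.05 in limma, with the higher level for in9. No member was below that p with a lower level, against 13.6% of all tested genes higher and 5.86% lower. That excess of higher genes depends on the scaling. At this p 1828 were higher and 785 lower in TPM as deposited, 1224 and 1374 after trimmed-mean scaling, and 1252 and 1230 after quantile normalization. The member result depends on the scaling too. After trimmed-mean scaling Cldn6 was at an unadjusted p of 0.0434 in limma. Cldn4 was then lower for in9, with a log2 fold change of -0.13 (unadjusted p = 0.0299, adjusted p = 0.211 in limma). After quantile normalization the unadjusted p in limma was 0.0737 for Cldn6 and 0.0829 for Cldn4. The median log2 fold change of the 8 was -0.04, and over all tested genes it was 0.06; after trimmed-mean scaling these were -0.10 and 0.00. Cldn1, with a mean of 0.39 TPM, was below that minimum and was not tested.

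The libraries held the markers of an epithelial line. Summed over 8 epithelial marker genes, TPM were 2355 to 2410 for LV2 and 2256 to 2312 for in9. Most of this sum was Krt8 and Krt18 (means of 903 and 950 TPM), which, like Epcam, were lower in each in9 library. Cdh1, Esrp1 and Krt19 went the other way, with in9 means 1.14, 1.11 and 1.04 times the LV2 means, and their groups overlapped. Krt7 and Cldn7 had slightly lower in9 means (0.974 and 0.938 times) with overlap. None of the 8 was called. Of 7 fibroblast, 8 leukocyte and 6 endothelial markers, 1 in each list reached a mean of 1 TPM (Pdgfra, Cd68 and Cdh5), and Lum, Adgre1 and Cldn5 were listed at 0 in every library. Summed, the leukocyte list, most of it Cd68, gave 27.9 to 28.9 TPM per LV2 library and 33.7 to 40.9 per in9 library, and the fibroblast list 4.74 to 6.76 and 7.95 to 8.43. The endothelial list gave 2.14 to 2.29 and 2.26 to 2.86 TPM. Mitochondrial transcripts made up 5.9% to 6.01% of the TPM per LV2 library and 6.42% to 7.64% per in9 library. The epithelial, leukocyte and fibroblast sums and the mitochondrial share differed between the groups without overlap. The part of the marker sums in the results was not tested, and no member was called in TPM without mitochondrial transcripts either. In such bulk libraries fewer cells of a type and less RNA per cell cannot be told apart. TPM keep no record of depth, which is unknown; 13154 to 13466 genes reached 1 TPM in a library. In9 replicate 1 stood apart from its group on the first principal component (28.1% of variance), at -2.70 where the other in9 libraries were at 26.1 and 27.8. LV2 replicate 1, at -6.98, was likewise apart from the other LV2 libraries, at -22.0 and -22.2. Several values are also given without in9 replicate 1, the library whose omission changed the number of called genes most.

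Cldn3 was the most abundant member. It encodes a barrier-forming claudin that, like that of Cldn4, is a receptor for the enterotoxin of Clostridium perfringens. Cldn3 was at 110.15, 105.69 and 104.43 TPM across LV2 and at 106.93, 95.78 and 106.62 TPM across in9. The groups overlapped, and the lowest value was that of in9 replicate 2. The log2 fold change, on the log2(TPM + 1) scale used throughout, was -0.05 ± 0.06 (SE), with a 95% confidence interval of -0.19 to 0.09 and an adjusted p of 0.652 in limma. As a fold, the interval ran from 0.877 to 1.06.

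Cldn4 had 64.34, 67.68 and 65.73 TPM across LV2 and 60.17, 63.87 and 64.82 TPM across in9. Those groups overlapped by a narrow margin, with in9 replicate 1 the lowest. Its log2 fold change was -0.07 ± 0.05 (interval -0.19 to 0.05, adjusted p = 0.505 in limma), which as a fold is 0.879 to 1.04.

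Cldn3 and Cldn4 are neighbours in the genome. In mm10 Cldn4 lies on chromosome 5 at 134945119 to 134946934 on the minus strand and Cldn3 at 134986214 to 134987472 on the plus strand. The 39279 bases between them hold 0 annotated protein-coding genes in GENCODE M21. The log2 ratio of Cldn3 to Cldn4 was 0.77, 0.64 and 0.66 for LV2 and 0.82, 0.58 and 0.71 for in9. The difference in this ratio was 0.01, smaller than the SD within either group (0.07 and 0.12), with p = 1.0 in an exact two-sided permutation test, which for 3 against 3 libraries cannot go below 0.10.

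The windows around the starts of both genes are shown with that of Cldn6, the member with the largest tested difference, because repressors of epithelial genes of the Snail and ZEB families bind the sequence CAGGTG or its reverse complement CACCTG. Each runs from 250 bases before to 50 after the RefSeq start (GRCm38.p6), 5′ to 3′ on the gene's strand, with matches in capitals.
Cldn3, chr5:134985964-134986263, plus strand: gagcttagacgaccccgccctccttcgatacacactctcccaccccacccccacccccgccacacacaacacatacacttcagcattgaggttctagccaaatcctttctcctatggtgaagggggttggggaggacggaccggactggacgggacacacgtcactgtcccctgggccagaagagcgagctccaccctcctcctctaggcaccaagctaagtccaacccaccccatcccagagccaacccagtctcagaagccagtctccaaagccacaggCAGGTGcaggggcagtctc
Cldn4, chr5:134946885-134947184, minus strand: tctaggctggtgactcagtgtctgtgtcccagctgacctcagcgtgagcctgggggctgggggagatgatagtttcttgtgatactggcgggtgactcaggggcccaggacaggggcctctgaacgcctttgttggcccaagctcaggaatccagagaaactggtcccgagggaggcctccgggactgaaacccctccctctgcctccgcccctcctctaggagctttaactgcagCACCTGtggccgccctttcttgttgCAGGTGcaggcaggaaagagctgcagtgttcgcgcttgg
Cldn6, chr17:23679115-23679414, plus strand: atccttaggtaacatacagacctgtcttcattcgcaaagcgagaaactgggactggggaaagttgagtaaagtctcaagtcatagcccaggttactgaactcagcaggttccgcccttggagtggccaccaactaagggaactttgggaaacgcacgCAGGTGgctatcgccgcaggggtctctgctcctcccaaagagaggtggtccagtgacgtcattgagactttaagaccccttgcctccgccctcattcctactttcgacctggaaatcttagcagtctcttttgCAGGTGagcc
Cldn3 had 1 match, and Cldn4 and Cldn6 had 2 each. All 9 members were in the promoter table, and 7 of them held a match in at least 1 window, all but Cldn1 and Tjp1. A match was held by 22.6% of the 27025 genes listed there and by 20.2% of their 32851 windows. Several matches lie after the start, in the transcribed part (starting 31 bases after it in Cldn3, 11 in Cldn4 and 40 in Cldn6). A match describes the letters of the window and not a bound site.

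The genes of those repressors were unequal in these cells. Snai1 had 23.18 to 28.4 TPM across LV2 and 26.4 to 28.54 TPM across in9, with a log2 fold change of 0.09 ± 0.08 (adjusted p = 0.575 in limma). Zeb2 was at 9.72 to 13.18 and 9.5 to 14.32 TPM. Zeb1 did not exceed 0.14 TPM in any library, and Snai2 was listed at 0 in all 6. Grhl2, which encodes an activator of claudin and other epithelial genes, had 9.51 to 10.8 TPM across LV2 and 9.05 to 11.88 TPM across in9. None of these differed between the groups by more than the spread of the libraries.

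Cldn6 encodes a claudin best known from embryonic epithelia and some tumours. Its level was low, at 1.75, 3.56 and 2.5 TPM across LV2 and 4.45, 4.03 and 4.21 TPM across in9. Every in9 library was above every LV2 library, and the LV2 libraries were the more spread (SD 0.909 against 0.211 TPM, n = 3 each). Of the 13406 genes tested, 17.4% were separated in this direction. The in9 mean was 1.62 times the LV2 mean in plain TPM. The log2 fold change was 0.57 ± 0.20 (interval 0.09 to 1.04), with an unadjusted p of 0.0261 and an adjusted p of 0.196 in limma, and so did not pass the test. It was 0.39 without LV2 replicate 1, the library with the lowest value, 0.75 without LV2 replicate 2, and 0.54 without in9 replicate 1. Cldn6 (chromosome 17, 23679249 to 23682446, plus strand) ends 137 bases from Cldn9 on the opposite strand. Whether counting used strand is not given in the sources used here, and Cldn9 itself was at 0.11 to 0.58 TPM across LV2 and 0.47 to 1.12 for in9.

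Cldn7 encodes a claudin that binds EpCAM and is found along the sides of epithelial cells. Its level was low, at 2.04, 3.13 and 4.28 TPM across LV2 and 3.25, 3.42 and 2.19 TPM across in9. The groups overlapped throughout. The log2 fold change was -0.05 ± 0.24 (interval -0.63 to 0.53, adjusted p = 0.931 in limma), so a fold from 0.647 to 1.44 lay within the interval.

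Cldn1 encodes the claudin that seals the epidermis. It was barely detected, at 0.3, 0.24 and 0.14 TPM across LV2 and 0.47, 0.73 and 0.46 TPM across in9. The groups did not overlap, and in9 was higher, as in 3.98% of the 12666 genes that had a value above 0 but a mean TPM under 1. With no minimum its log2 fold change was 0.34 ± 0.10, with an unadjusted p of 0.0131 and an adjusted p of 0.259 in limma over 26072 genes. With a pseudocount of 0.1 as well, chosen after the data were seen, it was 1.01 ± 0.39 (adjusted p = 0.393 in limma).

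**Figure D1:**
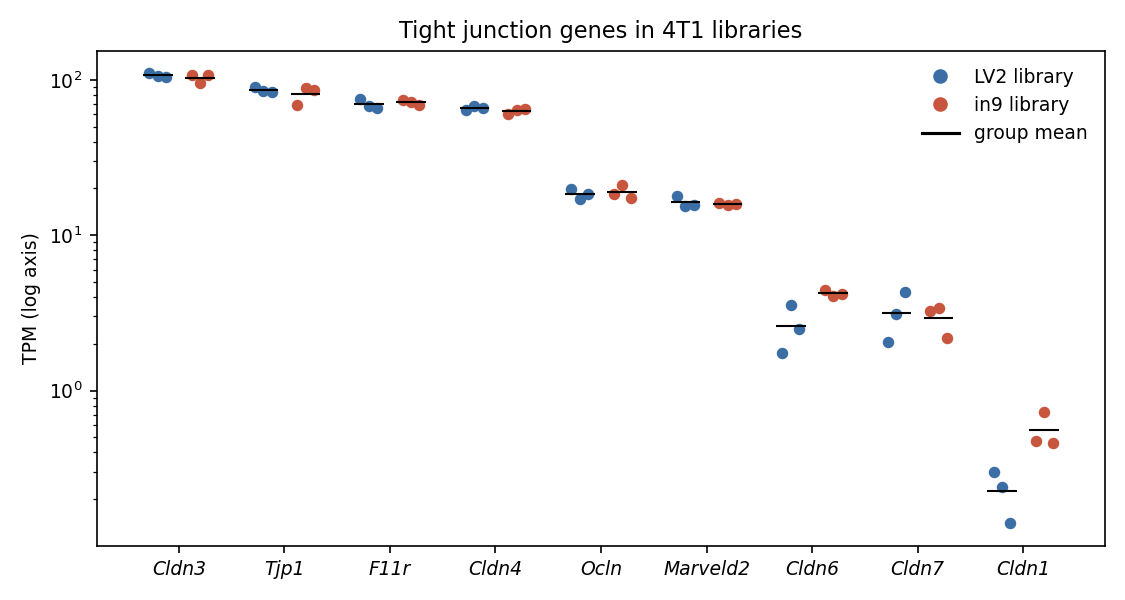
TPM of the 9 genes in each library on a log axis, ordered by mean level, with LV2 libraries at the left of each gene and in9 libraries at the right. Points are libraries and bars are group means; the groups are apart in Cldn6 (1.75 to 3.56 against 4.03 to 4.45 TPM) and Cldn1 (0.14 to 0.3 against 0.46 to 0.73 TPM) and overlap in the others.

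Among the partners, Tjp1 had the lowest fitted change. Its values were 90.27, 84.37 and 83.18 TPM across LV2 and 68.35, 88.12 and 85.43 TPM across in9. In9 replicate 1 was the low library, and the other in9 values lay within the LV2 range. The log2 fold change was -0.10 ± 0.10 (interval -0.34 to 0.14, adjusted p = 0.617 in limma), and without in9 replicate 1 it was 0.01. The gene spans 231.6 kb of chromosome 7 (65296165 to 65527781, minus strand). It overlaps 3 small annotated genes, of which Gm44792, on the same strand, was at 4.18 to 7.5 TPM and the other two at 0.

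F11r had 75.55, 68.02 and 65.71 TPM across LV2 and 74.24, 72.15 and 68.87 TPM across in9. All in9 values lay within the LV2 range, and the log2 fold change was 0.04 ± 0.07 (interval -0.12 to 0.20, adjusted p = 0.753 in limma).

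Ocln was at 19.72, 17.13 and 18.5 TPM across LV2 and 18.34, 21.06 and 17.43 TPM across in9. The groups overlapped, with a log2 fold change of 0.03 ± 0.09 (interval -0.19 to 0.26, adjusted p = 0.862 in limma). Marveld2 was at 17.82, 15.42 and 15.55 TPM across LV2 and 16.19, 15.65 and 15.82 TPM across in9, and all in9 values lay within the LV2 range. Its log2 fold change was -0.03 ± 0.08 (interval -0.21 to 0.15, adjusted p = 0.858 in limma).

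These MARVEL genes are also neighbours, both on the minus strand of chromosome 13, Ocln at 100496507 to 100552718 and Marveld2 at 100595957 to 100616971. The gap of 43238 bases holds 0 annotated protein-coding genes. The log2 ratio of Ocln to Marveld2 was 0.14, 0.14 and 0.24 for LV2 and 0.17, 0.41 and 0.13 for in9, so in9 replicate 2 had relatively more Ocln than any other library. The difference of 0.06 was about the SD within LV2 (0.06) and smaller than that within in9 (0.15). An exact two-sided permutation test gave p = 0.70, with 0.10 the smallest possible.

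**Figure D2:**
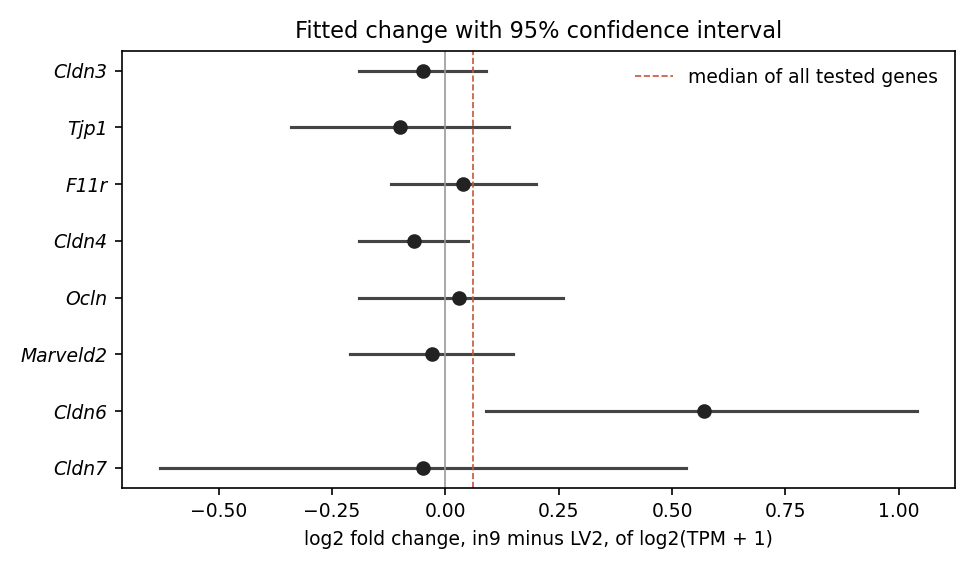
Fitted log2 fold change (in9 minus LV2, of log2(TPM + 1)) of the 8 tested genes, as points with 95% confidence intervals, from the most abundant gene at the top to the least abundant at the bottom. The interval of Cldn6 (0.09 to 1.04) is the 1 that leaves out 0; the widest is that of Cldn7 (-0.63 to 0.53), and the dashed line marks the median of all tested genes, 0.06.

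By level the order was Cldn3, Tjp1, F11r, Cldn4, Ocln, Marveld2, Cldn6, Cldn7 and Cldn1, with means over the 6 libraries of 105.0, 83.3, 70.8, 64.4, 18.7, 16.1, 3.42, 3.05 and 0.39 TPM. Cldn3 was above Tjp1 in all 6 libraries with no overlap in range. Tjp1 and F11r overlapped, as did F11r and Cldn4, each pair keeping its order in 5 of 6 libraries. A gap of 3.45-fold separated Cldn4 from Ocln. Ocln exceeded Marveld2 in all 6 libraries although their ranges met, and Marveld2 exceeded Cldn6 by 4.70-fold. Cldn6 and Cldn7 could not be ordered (4 of 6 libraries). Cldn3 stood at the 88.7th percentile of the tested genes.

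The claudin transcripts of these cells came from few genes. Of 23 claudins found in the table, 6 had a mean of at least 1 TPM (Cldn3, Cldn4, Cldn6, Cldn7, Cldn12 and Cldn23), 7 had a lower mean, and 10 were listed at 0 in every library. Cldn3 and Cldn4 together held 96.1% to 97.7% of the summed TPM of the 5 member claudins for LV2 and 95.1% to 96.2% for in9. That sum was 177.1 to 180.3 TPM across LV2 and 167.8 to 178.3 for in9. Cldn6 held 0.98% to 1.97% of it for LV2 and 2.36% to 2.54% for in9. Among all claudins, Cldn12, which is not among the 5, held 27.3% to 29.1% for LV2 and 24.0% to 30.2% for in9, with the lowest share for in9 replicate 1. Cldn12 encodes a claudin without the usual PDZ-binding end, and was at 72.6 ± 3.19 TPM across LV2 and 68.2 ± 9.62 TPM across in9 (SD, n = 3).

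**Figure D3:**
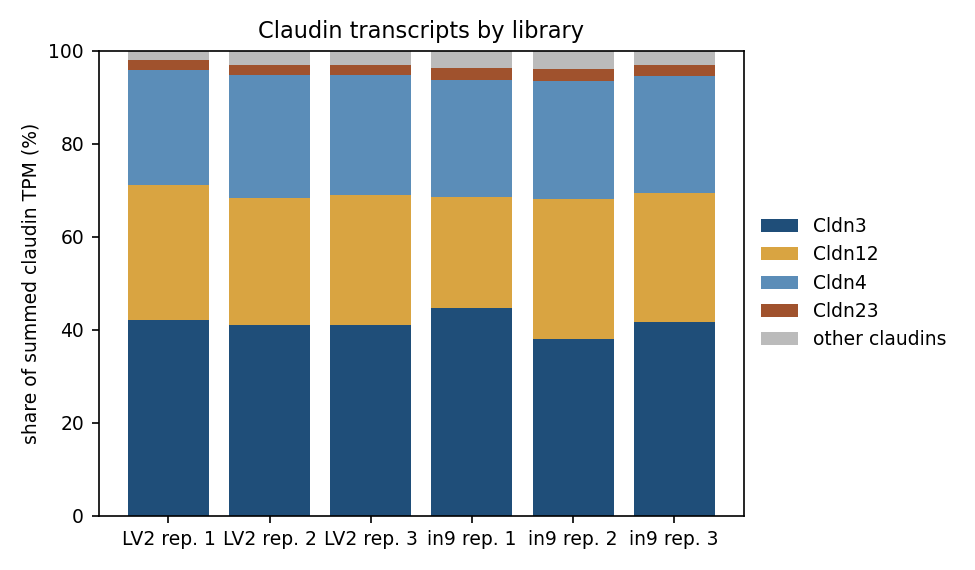
Share of the summed TPM of 23 claudins, in percent, in each of the 6 libraries. Stacked bars show Cldn3 (37.9% to 44.6%), Cldn12 (24.0% to 30.2%), Cldn4 (24.6% to 26.3%), Cldn23 (2.19% to 2.72%) and the rest; Cldn3 is the largest part in each library.

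Because the series targets miR-9, the 3' ends of the members were searched for its seed matches. The mature sequences are given 5′ to 3′ as in RefSeq (GRCm38.p6), with the seed, bases 2 to 8, in capitals.
mmu-miR-9-5p: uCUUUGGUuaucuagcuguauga
mmu-miR-9-3p: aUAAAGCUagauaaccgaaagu
A match was the reverse complement of the seed (ACCAAAG for the 5p arm, AGCTTTA for the 3p arm) or of its first 6 bases followed by A (CCAAAGA and GCTTTAA), in the longest 3' UTR of a protein-coding transcript in GENCODE M21. For the 5p arm 3 of 9 members held a match, each with 1, where 20.3% of 20976 genes did. For the 3p arm it was also 3 of 9, against 17.4%. The matches of both arms are shown on the gene's strand, with up to 30 bases around them and the match in capitals.
Cldn1, 5p arm, chr16:26356736-26356742: tataccctactACCAAAGctggaaagagat
Marveld2, 5p arm, chr13:100596460-100596466: aaagtagcgaaACCAAAGtaattaatgagt
Tjp1, 5p arm, chr7:65296981-65296987: tagggaaggacACCAAAGcatgtgagcccg
Cldn1, 3p arm, chr16:26358245-26358251: gctgtcttgtttGCTTTAAaaatatttgtt
Ocln, 3p arm, chr13:100498673-100498679: aaagtttccgtgGCTTTAAttccatcagtt
F11r, 3p arm, chr1:171463789-171463795: gagaagatacgAGCTTTAtagtcttggctc
Cldn3, Cldn4, Cldn6 and Cldn7 held neither, and their 3' UTRs were shorter (168 to 994 bases) than those of the other members (1332 to 2396 bases). The tested members with a 5p match, Marveld2 and Tjp1, had log2 fold changes of -0.03 and -0.10. Those with a 3p match, Ocln and F11r, had 0.03 and 0.04. Cldn1, which held a match to both arms, was too low to be tested. It was higher in each in9 library (0.46 to 0.73 TPM) than in each LV2 library (0.14 to 0.3 TPM), as were 3.98% of genes under a mean TPM of 1. Of the tested genes, 10943 had a 3' UTR that was searched. Among these the median was 0.08 with a 5p match (2436 genes) and 0.06 without (8507 genes). Both medians are of TPM as deposited, and medians for the 3p arm were not computed. Cldn6, with the largest tested difference, held no match to either arm.

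The other genes of the junction were followed in 6 lists with 64 symbols, of which 63 were in the table and 38 were tested. None of the 38 was called in limma. An unadjusted p under 0.05 was reached by 5, with 2 higher and 3 lower for in9. Of all tested genes, 13.6% were higher and 5.86% lower at this p. The 5 were Micall2 and Magi1 with in9 higher and Pard6b, Epcam and Elf3 with in9 lower. These counts are of TPM as deposited. After trimmed-mean scaling Magi1 had an unadjusted p of 0.0715 in limma. Cgn (0.00392) and Spint1 (0.0282) were then lower at an unadjusted p under 0.05, where 1224 of all tested genes were higher and 1374 lower. The median log2 fold change of the 38 was 0.04 (-0.03 after trimmed-mean scaling). Of the other claudins 2 were tested, Cldn12 and Cldn23. Cldn23 was at 5.62 to 5.83 TPM across LV2 and 6.15 to 6.87 TPM across in9, without overlap, with a log2 fold change of 0.15 (adjusted p = 0.406 in limma).

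Among other membrane proteins, Lsr encodes angulin-1, which brings tricellulin to cell corners. It was at 109 ± 6.09 TPM across LV2 and 107 ± 1.16 TPM across in9 (SD, n = 3), close to Cldn3 in level, with a log2 fold change of -0.03. Marveld3, the remaining MARVEL gene of the junction, had -0.07. Cxadr, an adhesion protein and virus receptor, had 0.24 ± 0.12 (adjusted p = 0.331 in limma), with 0.35 (adjusted p = 0.0735) without in9 replicate 1 and 0.15 without LV2 replicate 3. None of the 3 tested genes of this list was separated between the groups.

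All 13 scaffolds and adaptors were tested, with a median of 0.10 and 11 positive values, where 63.7% of all tested genes were positive. After trimmed-mean scaling 8 of the 13 were positive, with a median of 0.04, against 49.7% of all tested genes. Micall2, which works with Rab13 in returning occludin to the membrane, was at 40.51, 39.66 and 38.58 TPM across LV2 and 44.05, 49.86 and 50.31 TPM across in9. Its groups were apart, at a log2 fold change of 0.27 ± 0.07 (adjusted p = 0.109 in limma). Magi1, a scaffold with PDZ domains, had 0.26 ± 0.11 (adjusted p = 0.247 in limma). Cgn, which encodes cingulin, the link to myosin, was lower in each in9 library (35.66 to 41.25 TPM) than in each LV2 library (41.82 to 46.13 TPM), at -0.17 ± 0.07 (adjusted p = 0.276 in limma). Without in9 replicate 1 the value of Micall2 was 0.33 with an adjusted p of 0.0200, and that of Cgn was -0.11 with an adjusted p of 0.283. In that fit 7.25% of all tested genes were called higher and 3.8% lower. The adjusted p of Micall2 in limma was 0.198 to 0.308 without any other library. It was 0.0189 with library weights and 0.296 with the replicate block. The value of Cgn was -0.23 after trimmed-mean scaling (adjusted p = 0.11 in limma) and -0.22 after quantile normalization (adjusted p = 0.12 in limma).

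The polarity genes place the junction at the apical side. Of 6 tested, Pard6b, which encodes an adaptor of atypical protein kinase C, was at 32.23, 31.34 and 30.65 TPM across LV2 and 24.8, 26.35 and 27.63 TPM across in9. The groups were apart, at a log2 fold change of -0.25 ± 0.06 (adjusted p = 0.109 in limma), and after trimmed-mean scaling between libraries it was -0.32 with an adjusted p of 0.0498. The adjusted p in limma was 0.0448 after quantile normalization and 0.0381 with library weights. It was 0.31 with the replicate block and 0.0681 to 0.306 with 1 library left out. Prkci, the kinase itself, had 0.15 (adjusted p = 0.473), and without in9 replicate 1 it had 0.27 (adjusted p = 0.0367 in limma). Mpp5, which encodes PALS1, had 0.21 (adjusted p = 0.488 in limma), with 0.35 (adjusted p = 0.126) without in9 replicate 1 and 0.09 without in9 replicate 3. The value of Prkci without in9 replicate 3 was 0.07.

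Epcam had the smallest p of the genes tied to claudins. Its product binds and stabilises claudin-7, and it was at 47.65, 45.78 and 43.85 TPM across LV2 and 38.11, 36.66 and 35.87 TPM across in9. The groups were apart by more than the spread of either. The log2 fold change was -0.30 ± 0.05 (adjusted p = 0.0633 in limma), -0.33 (adjusted p = 0.0281) without in9 replicate 1 and -0.31 (adjusted p = 0.0172) with library weights. Those settings called many genes, 971 higher and 509 lower without in9 replicate 1 and 1166 and 523 with library weights. In limma the adjusted p of Epcam was 0.157 to 0.237 without any other library and 0.237 with the replicate block. It was 0.0546 after trimmed-mean scaling, 0.0528 after quantile normalization and 0.102 with no filter. Cldn7 did not show a like difference in these libraries, although its wide interval includes one. The protease inhibitor gene Spint1 had -0.13 and Lnx2, from a family of ubiquitin ligases that act on claudins, 0.14, neither called. Leaving out 1 library, Spint1 ran from -0.18 to -0.08 (the latter without LV2 replicate 1) and Lnx2 from 0.07 without in9 replicate 3 to 0.23 without in9 replicate 1.

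Of 7 tested transcription regulators, Elf3, an epithelial ETS factor, was lower in each in9 library (43.67 to 49.37 TPM) than in each LV2 library (50.33 to 54.2 TPM). Its log2 fold change was -0.18 ± 0.06 (adjusted p = 0.196 in limma), and -0.23 (adjusted p = 0.0486) without in9 replicate 1. The adjusted p in limma was 0.04 with library weights, 0.327 with the replicate block and 0.343 to 0.435 without any other library. Grhl1, a relative of Grhl2, had -0.13 and also did not overlap. Over these 6 lists 3 tested genes were apart with in9 higher and 5 with in9 lower, where 17.4% and 8.08% of all tested genes were.

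**Figure D4:**
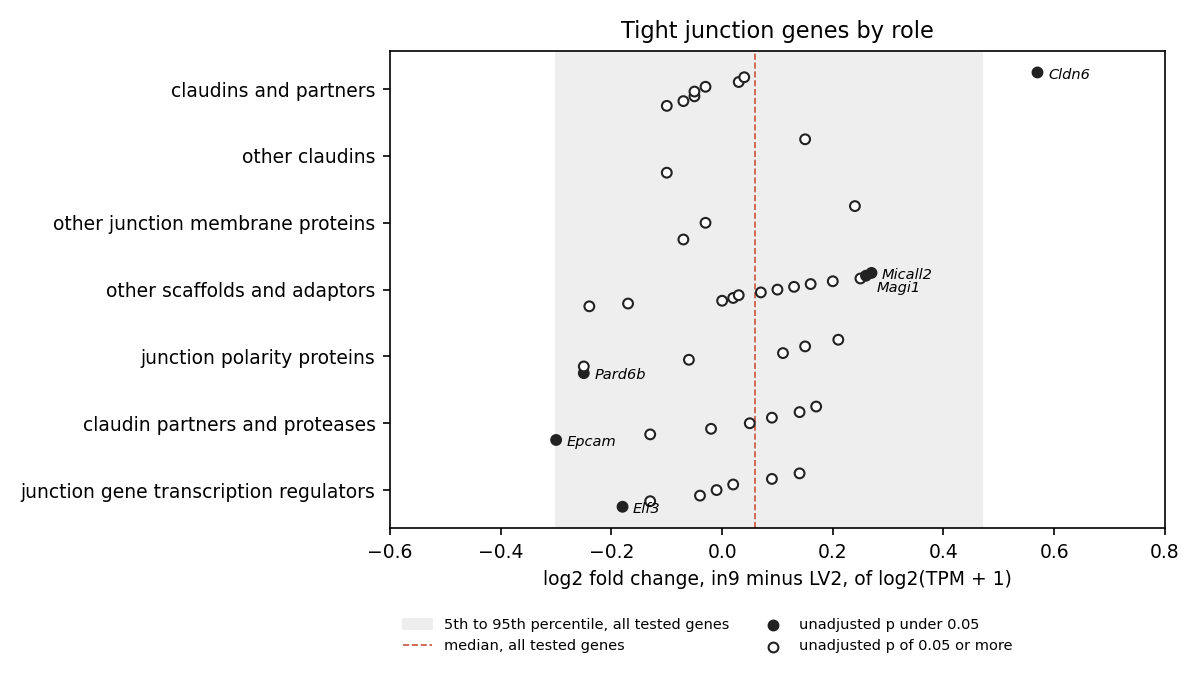
Log2 fold change (in9 minus LV2, of log2(TPM + 1)) of the tested genes in each list, 1 point a gene, filled where the unadjusted p was under 0.05; the grey band is the 5th to 95th percentile of all tested genes (-0.30 to 0.47) and the dashed line their median (0.06). Cldn6 at 0.57 is the point to the right of the band, and Epcam at -0.30 is at its lower edge.

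Direction held for some members under other processing and not for others. Cldn6 stayed positive in all 15 alternatives that gave it a value, from 0.39 to 0.75, with adjusted p from 0.177 to 0.402. Cldn4 stayed negative in all 16, from -0.13 to -0.03. Ocln changed sign in 4 of 16, among them trimmed-mean scaling (-0.03) and quantile normalization (-0.04), and F11r was at -0.02 after trimmed-mean scaling. Without in9 replicate 1 the log2 fold change was -0.08 for Cldn3, -0.03 for Cldn4, -0.11 for Cldn7, 0.02 for F11r and 0.05 for Ocln, and outside the members -0.11 for Marveld3. No member was called in limma under any of the alternatives, including the fit without in9 replicate 1, in which 7.25% of all tested genes were called higher and 3.8% lower.

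**Figure D5:**
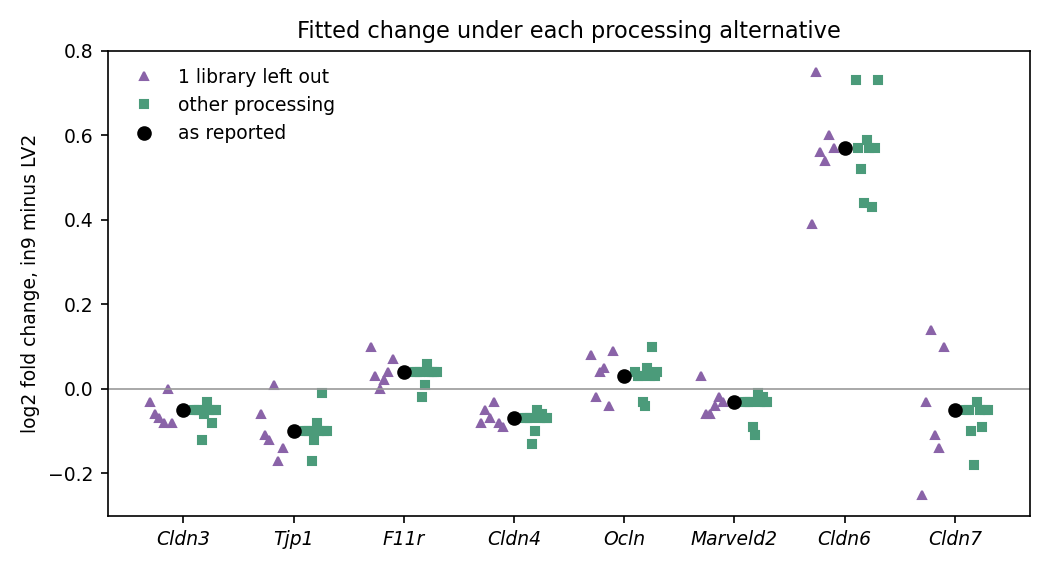
Fitted log2 fold change (in9 minus LV2) of the 8 tested genes with all libraries (circles), with 1 library left out (triangles) and under other processing (squares). The values of Cldn6 lie between 0.39 and 0.75 and those of the other 7 genes between -0.25 and 0.14.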

How the data were processed

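Messenger RNA of 6 4T1 libraries was analysed, in groups set by the genotype labels. The authors deposited TPM values with 2 decimals for 56448 genes, a mean TPM column per group (equal to the library means within 3.33e-05) and a gene length in bases, a value of another kind that the authors deposited beside them. The build was mm10, per the submitters' processing notes. How reads were aligned and quantified, and on which annotation, is not given in the sources used here. The design text speaks of a microarray and the extraction protocol of tissue, while the deposited values and the other labels are those of sequencing of a cultured line. Counts were not analysed here. Depth is thus unknown, and tests were run on log values.

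Genes with a mean of at least 1 TPM were fitted as log2(TPM + 1) in limma 3.58.1 (R 4.3.3) with an intensity trend and no replicate block, two-sided, with Benjamini-Hochberg adjustment over all 13406 genes. Python 3.11.15 and pandas 2.3.3 prepared the tables. Data were simulated for this comparison (13406 genes, 200 of them changed, 5 runs). Of changes in genes above about 5 TPM, 61.4% of 1.5-fold and 87% of 2-fold ones were recovered, and 6.3% of calls were false. The simulated noise was drawn independently for each gene and library, so no simulated library stood apart as in9 replicate 1 did. These rates may therefore not be those of the real libraries. GENCODE M21 gave positions and 3' UTRs; RefSeq gave promoters and miRNAs.

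Named genes were all 9 members, called genes of the other junction lists, up to 3 genes with the smallest p per list, and 3 genes most like the member with the smallest p. Other genes named were chosen after their values were seen. The members and lists were chosen with earlier results of these data known. Of the 64 symbols, Cldn25 was not matched, and 1 is not reported here. Other settings tried were a pseudocount of 0.1, the filter removed or raised to 5 TPM, trimmed-mean scaling over tested genes (30% of M and 5% of A at each end), quantile normalization, TPM without mitochondrial transcripts, no trend, library weights, a replicate block, and leaving out each library. The pseudocount of 0.1 with no filter was added after the data were seen.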

Additional observations from a re-analysis of the deposited data

How the results depend on the processing

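Counts over all genes were 110 higher and 26 lower. They were 24 and 6 with no filter, 27 and 4 with no intensity trend, 1166 and 523 with library weights, 1 and 1 with the replicate block, and 27 and 9 with a pseudocount of 0.1 and no filter; with a minimum of 5 TPM 45 were lower. Leaving out 1 library gave 6 to 971 higher and 1 to 509 lower, the most without in9 replicate 1 and at most 10 and 4 without any other. No member was called under any alternative. Of the other junction genes, 0 higher and 0 lower became 1 and 3 with library weights, 2 and 2 without in9 replicate 1 (0 and 0 without any other library), and 0 and 1 after trimmed-mean scaling or quantile normalization.

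Signs turned for Cldn3 (0.00 without in9 replicate 2; without 1 library -0.08 to 0.00), Cldn7 (0.14 without LV2 replicate 3, 0.10 without in9 replicate 3; range -0.25 to 0.14), Ocln (-0.03 with trimmed-mean scaling, -0.04 with quantile normalization, -0.02 without LV2 replicate 2, -0.04 without in9 replicate 2; to 0.09), Marveld2 (0.03 without LV2 replicate 1; from -0.06), F11r (-0.02 with trimmed-mean scaling), Tjp1 (0.01 without in9 replicate 1; from -0.17), Cldn12 (0.00 with library weights, 0.02 without in9 replicate 1; from -0.18) and Lsr (0.02 without LV2 replicate 1; from -0.06); none of these was called. Leaving out 1 library, the difference in log2 ratio ran from -0.04 to 0.08 for Cldn3 to Cldn4 and from -0.02 to 0.12 for Ocln to Marveld2. Causes were not tested.

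The labels do not say whether replicate numbers pair the libraries. Deviations from the group means correlated at -0.10, 0.02 and -0.05 for the same numbers and at -0.06 to 0.10 for unlike numbers. With 3 libraries a group, whose deviations sum to 0, such correlations cannot decide it. The replicate block changed no member's call, with Cldn6 at an adjusted p of 0.344 in limma. TPM without counts leave low members such as Cldn1, Cldn6 and Cldn7 without a known counting error.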

Other observations

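Some low genes of the junction lists were apart in the same direction as Cldn1 and were named after their values were seen. Jam3, which encodes a relative of JAM-A, was at 0.1, 0.08 and 0.14 TPM across LV2 and 0.46, 0.24 and 0.29 TPM across in9. Ovol2, an epithelial zinc-finger regulator, was at 0.35, 0.15 and 0.18 TPM across LV2 and 0.44, 0.67 and 0.43 TPM across in9. Both were under the minimum of 1 TPM and were not tested, and 3.98% of the 12666 genes at such levels were apart with in9 higher.

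The genes whose profile was nearest to that of Cldn6, among 10563 with a mean of at least 5 TPM, were a locus with no symbol in the table, Hspb2 and C78283. Likeness was the root-mean-square difference of centred log2(TPM + 1) values over the 6 libraries, at 0.12, 0.13 and 0.14. Hspb2, a small heat-shock protein gene, was at 12.65, 17.12 and 15.58 TPM across LV2 and 27.4, 20.89 and 22.47 TPM across in9. C78283 was at 6.82, 9.53 and 7.46 TPM across LV2 and 10.84, 9.75 and 12.16 TPM across in9.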
